A study of Mus musculus with 14 samples.

Results

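Granzymes are serine proteases that cytotoxic lymphocytes store in granules, and perforin is the protein that forms pores in a target cell's membrane and lets granzymes reach its interior. Of the 55486 genes in the deposited count table, 10 were taken by name: Gzma, Gzmb, Gzmc, Gzmd, Gzme, Gzmf, Gzmg, Gzmk and Gzmm, which encode granzymes, and Prf1, which encodes perforin. All 10 were found, and each has the same coordinates in GENCODE mouse release 21. Their RNA was counted in CD8 T cells isolated from mice, activated with antibodies against CD3 and CD28 and expanded in culture until day 8.

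The KO group (3 libraries) was CreERT2 heterozygous, homozygous for a floxed Dot1l allele and heterozygous for the OT-I T cell receptor transgene, and the WT group (3 libraries) differed from it in carrying wild-type Dot1l. Both received 10 nM 4-hydroxytamoxifen on day 0, so that Cre activation is shared by the KO and WT groups. DOT1L is the methyltransferase that places methyl groups on lysine 79 of histone H3. The EPZ group (4 libraries) received the DOT1L inhibitor EPZ-5676 every 2 days, and the DMSO group (4 libraries) received 0.1% DMSO on the same schedule. Cells of the EPZ and DMSO groups carried no Cre and no floxed allele and were heterozygous for OT-I. One label gives the inhibitor dose as 10 mM and the library name gives 10 uM, and nothing in the counts decides between them. The mice have no age in the sources used here, and the promoter of CreERT2 is not named in them.

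Library totals ran from 5643724 to 20586093 counts. The Dot1l count over the whole gene was higher in the KO libraries, at 218, 200.5 and 189 CPM, against 134, 139.9 and 133 CPM in the WT libraries, and a count over the whole gene cannot check the deletion of a part of it. Counts of Xist and of the Y-linked gene Ddx3y differed from the labelled sex in 2 of 3 KO libraries (KO 2 and KO 3) and in 2 of 3 WT libraries (WT 2 and WT 3). None of the 8 EPZ and DMSO libraries differed from its label in this way. The number of female libraries per group was the same by label and by counts, with 1 in KO, 1 in WT, 2 in EPZ and 2 in DMSO. Markers of CD8 T cells summed to 2622 to 2682 CPM in KO and 4244 to 4579 CPM in WT, and to 3441 to 3770 CPM in EPZ and 4576 to 5004 CPM in DMSO. Of these 8 markers, 6 were lower and 0 higher in KO at an adjusted p under 0.05 (20.2% and 20.3% of all genes). In EPZ, 5 were lower and 0 higher (8.31% and 11.9% of all genes). Cd8a was lower by log2 fold change -2.60 in KO and -1.06 in EPZ, and Cd8b1 by -2.33 and -1.15. Both were detected in all groups. Cd3e (0.16) and Cd3g (-0.00051) were not called in KO. CPM is the count scaled to a common library size by the TMM factors of all 14 libraries. In bulk RNA, fewer expressing cells and less RNA per cell cannot be told apart.

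The granzyme genes lie in separate places of the mouse genome (mm10). Gzmb, Gzmc, Gzmd, Gzme, Gzmf and Gzmg are on the minus strand of chromosome 14 within a span of 145 kb, in the order Gzme (chr14:56117626-56120625), Gzmd (chr14:56129556-56132608), Gzmg (chr14:56156582-56159579), Gzmf (chr14:56205263-56211417), Gzmc (chr14:56231441-56234656) and Gzmb (chr14:56258838-56262260). Gzma (chr13:113093825-113100981) and Gzmk (chr13:113171608-113225908) are neighbours on chromosome 13, with 70.6 kb between them, and both are on the minus strand. Gzmm (chr10:79689020-79695261) and Prf1 (chr10:61297833-61304680) are both on the plus strand of chromosome 10, far from each other. All 10 are annotated as protein coding.

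In the cluster, upstream sequence sets Gzmb apart from Gzmc to Gzmg, while coding sequence does so for Gzmd to Gzmg but not for Gzmc. Over their coding sequences, Gzmd and Gzme were 93.5% identical, the 10 pairs among Gzmc to Gzmg were 72.9% to 93.5% identical, and Gzmb was 67.8% to 76.8% identical to these 5 genes. The highest of those values is for Gzmc, whose coding sequence was 72.9% to 74.7% identical to the other 4. Cluster genes shared 54.2% to 56.8% with Gzma, Gzmk and Gzmm. The 250 bases before the start site were 71.5% to 94.8% identical among Gzmc to Gzmg, and 48.4% to 51.6% between Gzmb and each of them. Upstream sequences from RefSeq (GRCm38.p6) are printed here for Gzmc to Gzmg, the genes with the largest KO effects in the cluster. They are also printed for Gzmb, which differs in sequence and size of effect, and for Prf1, which differs in sequence. Each runs from 200 to 31 bases before the RefSeq start site, on the gene's own strand, 5′ to 3′. Capitals mark TGTGGT, the core bound by Runx factors, on either strand (ACCACA on the opposite one), and TGACGTCA, the palindromic cAMP response element. The second of these motifs was chosen after the sequences had been seen. The windows are chr14:56234688-56234857 for Gzmc, chr14:56132624-56132793 for Gzmd, chr14:56120656-56120825 for Gzme, chr14:56211438-56211607 for Gzmf, chr14:56159610-56159779 for Gzmg, chr14:56262365-56262534 for Gzmb and chr10:61297636-61297805 for Prf1.
Gzmc: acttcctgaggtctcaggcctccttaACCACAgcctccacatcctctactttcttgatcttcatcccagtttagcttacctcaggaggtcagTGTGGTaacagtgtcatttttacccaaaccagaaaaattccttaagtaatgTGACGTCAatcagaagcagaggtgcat
Gzmd: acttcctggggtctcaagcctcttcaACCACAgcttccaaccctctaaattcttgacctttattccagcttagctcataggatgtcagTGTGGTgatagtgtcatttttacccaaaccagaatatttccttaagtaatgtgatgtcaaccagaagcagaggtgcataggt
Gzme: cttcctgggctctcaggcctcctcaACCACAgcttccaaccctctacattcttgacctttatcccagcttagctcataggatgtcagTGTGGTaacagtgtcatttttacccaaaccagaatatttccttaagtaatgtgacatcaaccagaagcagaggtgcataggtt
Gzmf: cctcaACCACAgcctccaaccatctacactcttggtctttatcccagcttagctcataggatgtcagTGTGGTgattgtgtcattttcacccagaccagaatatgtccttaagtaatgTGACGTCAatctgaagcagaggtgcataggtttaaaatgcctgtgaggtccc
Gzmg: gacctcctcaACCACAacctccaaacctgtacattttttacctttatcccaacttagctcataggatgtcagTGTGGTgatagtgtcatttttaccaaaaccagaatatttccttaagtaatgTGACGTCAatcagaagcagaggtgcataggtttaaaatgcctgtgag
Gzmb: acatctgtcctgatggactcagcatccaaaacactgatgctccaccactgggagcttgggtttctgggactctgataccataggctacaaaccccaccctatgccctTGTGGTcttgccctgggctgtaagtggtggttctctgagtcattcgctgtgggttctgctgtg
Prf1: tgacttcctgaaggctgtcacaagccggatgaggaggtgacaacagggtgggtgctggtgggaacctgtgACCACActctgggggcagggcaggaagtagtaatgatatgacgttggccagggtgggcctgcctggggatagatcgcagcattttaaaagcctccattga

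TGTGGT was found in 16.8% of 32851 RefSeq promoters of 300 bases and in 9 of the 11 promoters of the members, which include 2 for Gzmm. Each of the 5 genes Gzmc to Gzmg held it at 2 positions in opposite orientations, which stand in the printed windows. Gzmb held 2 matches, the second of which ends after the printed window. TGACGTCA was found in 1.79% of all promoters and in those of Gzmc, Gzmf and Gzmg. In the aligned place, the printed Gzmd and Gzme windows do not hold these 8 letters. Other motifs searched on both strands were the T-box site AGGTGTGA (1.28% of all promoters, 0 of 11 here), its core GGTGTG (19% and 4 of 11), the STAT site TTCNNNGAA (8.3% and 2 of 11), the AP-1 site TGANTCA (7.81% and 1 of 11, Gzmb) and the Ets site ACCGGAAG (2.3% and 0 of 11). AGGTGTGA contains GGTGTG. Upstream sequences of Gzmc to Gzmg were 71.5% to 94.8% identical, so their matches are not independent of each other. Counts over the member promoters are therefore no measure of enrichment against all promoters. A match is only a description of the letters.

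The sequences bear on the counting as well. Of the runs of 50 bases in the transcripts of Gzmd, Gzme and Gzmg, 21.9%, 20.6% and 19.8% also occur in another gene of the cluster. A read of that length and sequence does not tell these genes apart. For Gzmf the share was 7.36% and for Gzmc 4.14%, and it was 0 for Gzma, Gzmb, Gzmk, Gzmm and Prf1. Over runs of 100 bases the shares were 0.231% for Gzmd, 0.247% for Gzmg and 0 for the other 8 members. The read length is not stated in the labels, and with short reads the levels of single genes from Gzmd to Gzmg would be less certain. Whether such reads were counted or dropped was not checked, so their sum may be affected as well.

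Knockout cells and wild-type cells were compared first. All 10 members had counts that passed the filter on low values, and 9 were higher and 1 was lower in KO than in WT at an adjusted p under 0.05 (edgeR's quasi-likelihood test, Benjamini-Hochberg over 11570 genes). Among all genes tested, 20.3% were called higher and 20.2% lower, 40.4% in either direction. Gzmf and Gzmg passed the filter on KO libraries alone, since no WT library reached its level, so their call is not independent of the filter. The median log2 fold change of the 10 members was 3.58, against -0.0064 over all genes. In none of the 10 did the KO and WT libraries overlap, a state found for 24.4% of genes in the higher and 26.8% in the lower direction, 51.1% in all.

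Prf1 is the perforin gene, without which granzymes are delivered poorly. Its level was 238, 238 and 303 CPM in the KO libraries, against 24.3, 13.0 and 25.3 CPM in the WT libraries. Every KO library was above all WT libraries. The log2 fold change was 3.57 ± 0.16 (SE; adjusted p = 5.03e-09).

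Gzmb encodes the granzyme that cleaves its substrates after aspartate, and it is the most studied killer protease of CD8 T cells. Its level was 2194, 2320 and 2392 CPM in the KO libraries, against 2113, 1444 and 1883 CPM in the WT libraries. The groups did not overlap, but the lowest KO library was close to the highest WT library. The log2 fold change was 0.35 ± 0.11 (adjusted p = 0.0179), and without KO 3 it was 0.21 (adjusted p = 0.0597).

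The other 5 cluster genes had lower levels than Gzmb in WT and larger log2 fold changes. Gzmc had 326, 349 and 495 CPM in the KO libraries, against 41.3, 25.1 and 31.0 CPM in the WT libraries, a log2 fold change of 3.58 ± 0.17 (adjusted p = 8.75e-09). Gzmd had 178, 166 and 266 CPM in the KO libraries, against 3.99, 1.46 and 5.77 CPM in the WT libraries, a log2 fold change of 5.52 ± 0.25 (adjusted p = 5.29e-09). Gzme had 103, 104 and 153 CPM in the KO libraries, against 2.05, 0.916 and 2.32 CPM in the WT libraries, a log2 fold change of 5.91 ± 0.22 (adjusted p = 1.41e-09). In mice, Gzmc to Gzmg are expressed mainly in strongly or lastingly stimulated killer cells, and humans lack direct counterparts of most of them. Gzmg had 16.8, 13.4 and 33.2 CPM in the KO libraries, against 0.363, 0 and 0.361 CPM in the WT libraries, and its log2 fold change was 6.06 ± 0.53 (adjusted p = 1.67e-06). Gzmf had 7.09, 6.61 and 15.9 CPM in the KO libraries, against 0.363, 0.183 and 0.515 CPM in the WT libraries, and its log2 fold change was 4.49 ± 0.48 (adjusted p = 9.76e-06). Only 14 counts of Gzmf and 10 of Gzmg were found over all 3 WT libraries, so that the sizes of these effects rest on few WT counts. From pooled counts the KO to WT ratio was 21.4 for Gzmf (95% interval 12.6 to 39.6) and 63.4 for Gzmg (34.3 to 133), with counting error only.

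The granzymes elsewhere moved less, and not all the same way. Gzma encodes a tryptase that cleaves after basic residues, and it had 1675, 1788 and 2342 CPM in the KO libraries, against 745, 420 and 655 CPM in the WT libraries. Its log2 fold change was 1.68 ± 0.17 (adjusted p = 5.38e-06). Gzmk, its neighbour and another tryptase, had 46.6, 44.95 and 52.4 CPM in the KO libraries, against 16.9, 13.7 and 19.5 CPM in the WT libraries, a log2 fold change of 1.47 ± 0.11 (adjusted p = 3.3e-07). Both genes had every KO library above every WT library. Gzmm, a granzyme that cleaves after methionine and leucine, had 11.9, 12.9 and 9.62 CPM in the KO libraries, against 14.1, 14.5 and 15.6 CPM in the WT libraries. It was lower in KO by a log2 fold change of -0.34 ± 0.13 (adjusted p = 0.0475), a call that did not hold with DESeq2 (adjusted p = 0.122) or in 5 of 6 leave-one-out fits. Gzmc to Gzmg had log2 fold changes of 3.58 to 6.06, and Gzma, Gzmk and Gzmm of -0.34 to 1.68. Gzmb, inside the cluster, lay within the range of the genes elsewhere.

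**Figure D1:**
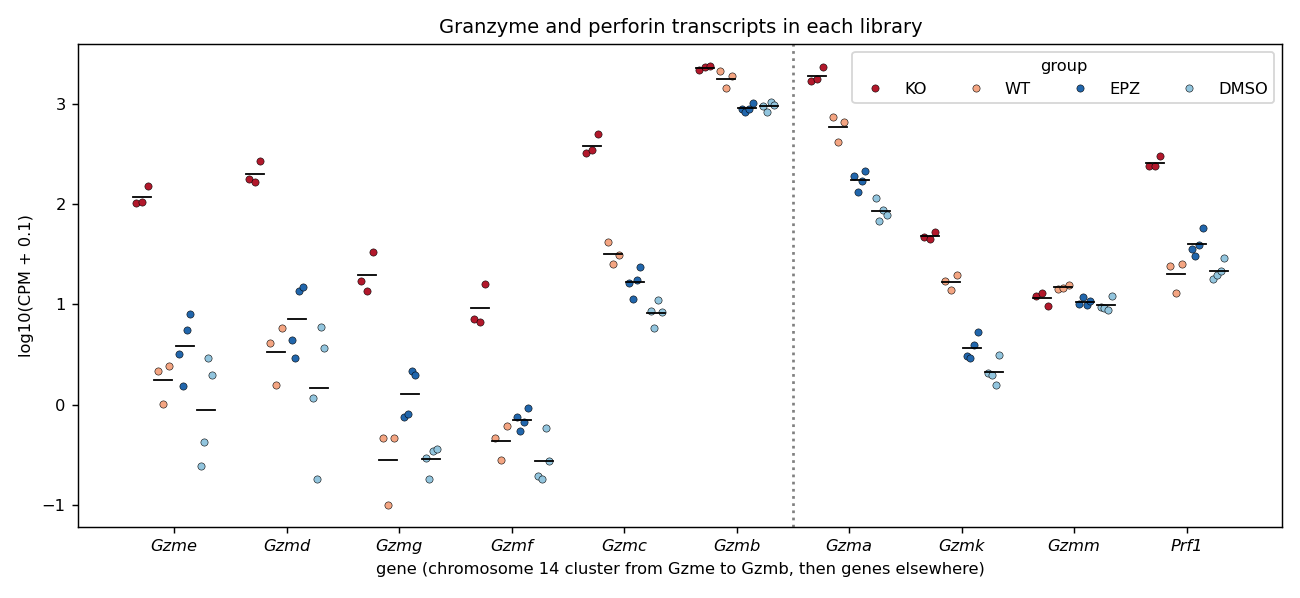
Level of each member in each of the 14 libraries, as log10 of CPM plus 0.1, with the mean of each group as a bar; the dotted line separates the chromosome 14 cluster from genes elsewhere. In the cluster from Gzme to Gzmc the KO libraries stand above all others, while Gzmb differs far less between KO (2194 to 2392 CPM) and WT (1444 to 2113 CPM).

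Levels were also set out by the sex read from the counts. KO 3, the only KO library called female by its counts of Xist and Ddx3y, was the highest KO library for 9 of 10 members, and WT 2, the only WT library called female, was the lowest WT library for 9 of 10. Among the male libraries by counts (KO 1 and KO 2, WT 1 and WT 3), the KO to WT ratio of mean CPM was 9.60 for Prf1, 9.33 for Gzmc, 35.3 for Gzmd and 47.4 for Gzme. The ratio between the female libraries (KO 3 over WT 2) was 23.3 for Prf1, 19.7 for Gzmc, 182 for Gzmd and 167 for Gzme. For Gzmb it was 1.13 in male and 1.66 in female libraries, and for Gzma 2.47 and 5.58. Between KO 1 and WT 1, the pair whose counts match their labelled sex, the ratio was 9.79 for Prf1, 1.04 for Gzmb, 44.7 for Gzmd, 49.99 for Gzme, 2.25 for Gzma and 0.842 for Gzmm. These are descriptions of 1 or 2 libraries a side. For how many of all genes KO 3 was highest or WT 2 lowest was not counted.

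Inhibitor-treated cells and their vehicle controls were compared next. Gzmf did not pass the filter, and 9 members were tested, of which 5 were higher in EPZ than in DMSO and none was lower (adjusted p under 0.05, edgeR, 12208 genes tested). Over all genes tested, 11.9% were called higher and 8.31% lower. The median log2 fold change over the 9 tested members was 1.02, against -0.0075 over all genes. Gzma, Gzmc, Gzmg and Prf1 had every EPZ library above every DMSO library, a state found for 13.5% of genes in this direction. Gzmg passed the filter on EPZ libraries alone, as no DMSO library reached its level.

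Prf1 had 35.8, 30.5, 39.3 and 57.4 CPM in the EPZ libraries, against 17.8, 19.3, 21.3 and 28.7 CPM in the DMSO libraries. The log2 fold change was 0.91 ± 0.20 (SE; adjusted p = 0.00791), and the EPZ to DMSO ratio within an animal was 2.02, 1.58, 1.84 and 2.00. All 4 animals went the same way. Gzmb had 895, 835, 892 and 1029 CPM in the EPZ libraries, against 960, 828, 1046 and 977 CPM in the DMSO libraries, and its log2 fold change of -0.06 ± 0.09 was not called (adjusted p = 0.679). The groups overlapped, and the ratio within an animal was 0.932, 1.01, 0.852 and 1.05.

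Gzma had 191, 132, 169 and 214 CPM in the EPZ libraries, against 116, 67.6, 86.7 and 77.3 CPM in the DMSO libraries, and it was higher in EPZ by a log2 fold change of 1.02 ± 0.17 (adjusted p = 0.00207). Gzmc had 16.2, 11.3, 17.5 and 23.2 CPM in the EPZ libraries, against 8.48, 5.65, 10.9 and 8.26 CPM in the DMSO libraries, a log2 fold change of 1.04 ± 0.22 (adjusted p = 0.00749). Gzmg had 0.651, 0.715, 2.06 and 1.89 CPM in the EPZ libraries, against 0.192, 0.0819, 0.245 and 0.258 CPM in the DMSO libraries, and was higher in EPZ by 2.73 ± 0.56 (adjusted p = 0.00603). This rests on 88 EPZ and 10 DMSO counts.

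For Gzmd and Gzme the levels varied widely between animals. Gzmd had 4.34, 2.81, 13.4 and 14.9 CPM in the EPZ libraries, against 1.05, 0.0819, 5.88 and 3.61 CPM in the DMSO libraries, and the log2 fold change of 1.91 ± 0.72 was not called (adjusted p = 0.0848). Gzme had 3.09, 1.43, 5.40 and 7.88 CPM in the EPZ libraries, against 0.144, 0.328, 2.82 and 1.89 CPM in the DMSO libraries, a log2 fold change of 2.01 ± 0.70 (adjusted p = 0.0653). Within every animal EPZ was higher, with ratios of 4.12, 34.3, 2.27 and 4.14 for Gzmd and of 21.5, 4.37, 1.92 and 4.17 for Gzme. With the animal as a block in the fit, both were called, Gzmd at 1.89 (adjusted p = 0.00282) and Gzme at 2.05 (adjusted p = 0.00902), which brought the number called to 7. The ratios of 34.3 and 21.5 divide by DMSO levels of 0.0819 and 0.144 CPM.

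**Figure D2:**
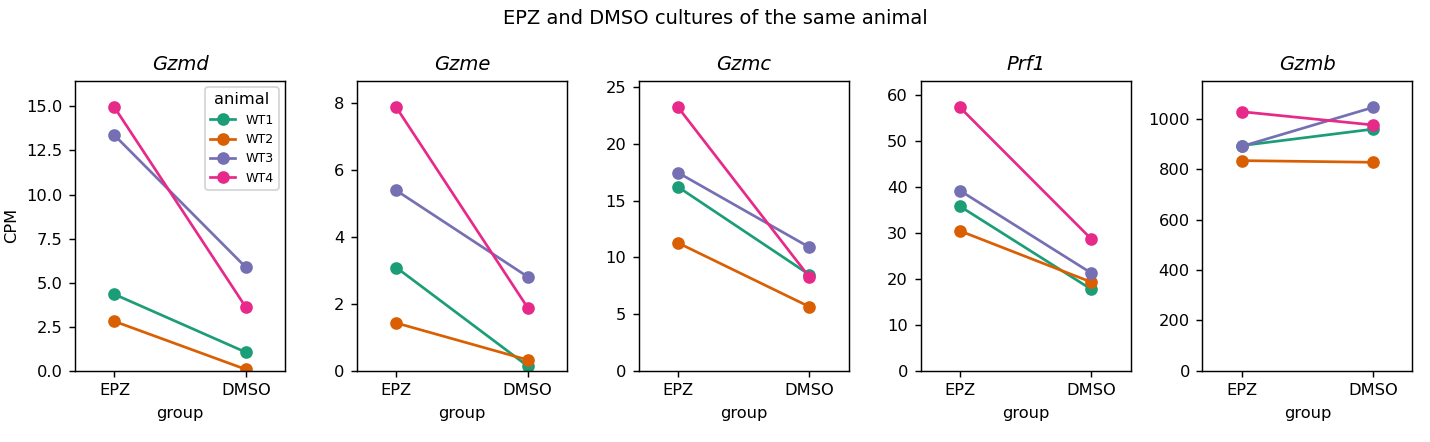
Level in CPM of 5 members in the EPZ culture and the DMSO culture of each animal (WT1 to WT4), with a line joining the cultures of 1 animal. Gzmd, Gzme, Gzmc and Prf1 were higher in the EPZ culture of all 4 animals, while Gzmb moved by a ratio of 0.852 to 1.05 in either direction.

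Gzmk had 2.98, 2.81, 3.80 and 5.17 CPM in the EPZ libraries, against 1.96, 1.88, 1.47 and 3.01 CPM in the DMSO libraries. The groups overlapped, since DMSO 4 was above EPZ 1 and EPZ 2, and the log2 fold change of 0.79 ± 0.26 was just called (adjusted p = 0.0480), a call that held in 2 of 8 leave-one-out fits. Gzmm had 10.1, 11.8, 9.66 and 10.7 CPM in the EPZ libraries, against 9.24, 9.09, 8.69 and 12.1 CPM in the DMSO libraries, and was not called (0.11 ± 0.12; adjusted p = 0.574). Gzmf, untested, had 41 counts over the EPZ libraries and 9 over the DMSO libraries, a ratio of 3.53 (95% interval 1.69 to 8.26, counting error only).

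Levels in EPZ and DMSO were set out by labelled sex too. Animals 3 and 4 are labelled male and animals 1 and 2 female, and both male libraries were above both female libraries for 6 members in EPZ (Gzmc, Gzmd, Gzme, Gzmg, Gzmk and Prf1) and for 6 in DMSO (Gzmb, Gzmd, Gzme, Gzmf, Gzmg and Prf1). How many of all genes do the same was not counted. With 2 animals a sex, sex and animal cannot be told apart.

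The effects of the knockout and of the inhibitor were then set against each other in 1 fit over the 14 libraries. The KO effect was larger than the EPZ effect for 4 members at an adjusted p under 0.05 (12639 genes tested, of which 3.29% were called in this direction, 4.31% in the other and 7.6% in either). These were Prf1, by 2.68 ± 0.31 on the log2 scale (adjusted p = 6.14e-05), Gzmc by 2.54 ± 0.33 (1.61e-04), Gzme by 3.85 ± 0.98 (0.0235) and Gzmd by 3.58 ± 0.97 (0.0320). The Gzmd and Gzme calls were lost without DMSO 3 or DMSO 4, and the Gzmd call also without any of KO 1, KO 3, WT 1 or WT 2 (adjusted p up to 0.0967). For Gzma the difference was 0.65 ± 0.29 (adjusted p = 0.193), for Gzmb 0.41 ± 0.15 (0.125), for Gzmk 0.70 ± 0.28 (0.154), for Gzmm -0.46 ± 0.18 (0.142), for Gzmf 2.77 ± 0.95 (0.0920) and for Gzmg 3.36 ± 1.26 (0.123), and none of these was called. The knockout and inhibitor groups differ in genotype and in treatment schedule as well as in how DOT1L was affected, so these cannot be told apart.

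**Figure D3:**
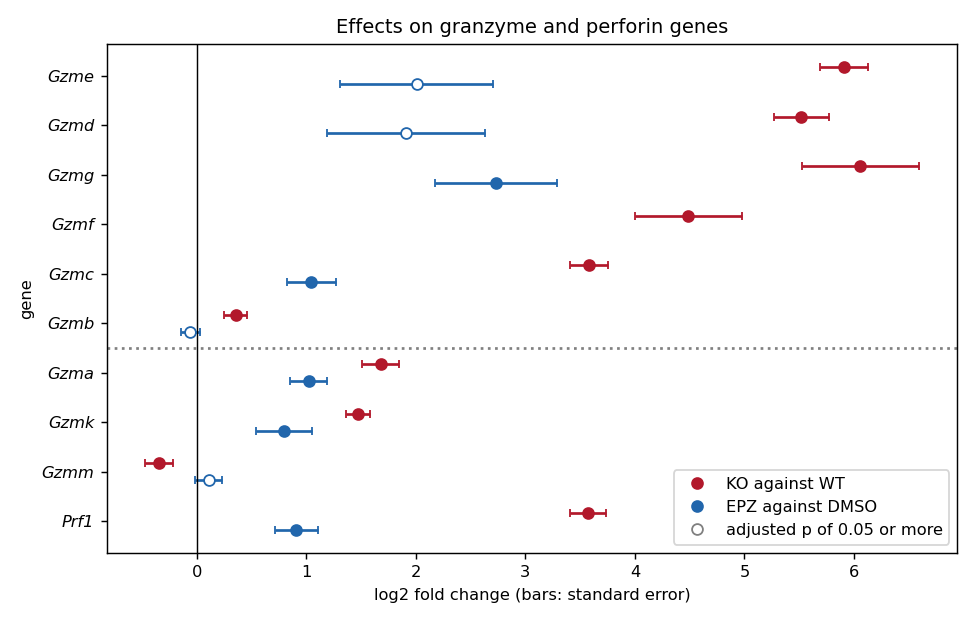
Log2 fold change of each member with its standard error, KO against WT in red and EPZ against DMSO in blue; open symbols have an adjusted p of 0.05 or more, and Gzmf was not tested in EPZ against DMSO. The KO effects of Gzme to Gzmc lie between 3.58 and 6.06, while Gzmb lies at 0.35 and -0.06.

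The order of the group levels was not the same for all members. Gzma and Gzmc fell in the order KO, WT, EPZ, DMSO with no overlap between neighbours, and Gzmk did so except that EPZ and DMSO overlapped. For Gzmd, Gzme and Gzmf, KO was apart from the rest, while EPZ, WT and DMSO followed with overlap between neighbours. Gzmg differed from them in that EPZ did not overlap WT. Prf1 had KO above EPZ above DMSO without overlap, and DMSO and WT overlapped. For Gzmb the order was KO, WT, then DMSO and EPZ, the last pair overlapping. WT and DMSO cells differ in Cre and tamoxifen as well as in solvent, and their levels were not tested.

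The makeup of the granzyme RNA shifted with these changes. On a scale of CPM per kb of exon, Gzmb averaged 1603 ± 69.7 in KO and 1263 ± 237 in WT, and Gzma averaged 1923 ± 355 in KO and 603 ± 167 in WT (SD, n = 3 each). On this scale Gzma was the highest granzyme in KO and Gzmb in WT, EPZ and DMSO. The order in KO depends on the division by length, since on undivided counts Gzmb made up 46.0% and Gzma 38.2% of the granzyme counts in KO. Gzmb made up 36.9% ± 3.64 of the summed granzyme level per length in KO and 65.7% ± 2.19 in WT, and 74.4% ± 2.75 in EPZ and 86.0% ± 1.89 in DMSO (SD, n = 3, 3, 4 and 4). The Gzma share was 43.7% ± 1.77 in KO and 30.9% ± 2.25 in WT, and 20.4% ± 2.01 in EPZ and 11.1% ± 2.16 in DMSO. The share of Gzmc to Gzmg together was 18.4% ± 2.01 in KO and 2.20% ± 0.125 in WT, and 4.02% ± 1.38 in EPZ and 1.76% ± 0.694 in DMSO. Shares over libraries were not tested, since the members were chosen.

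**Figure D4:**
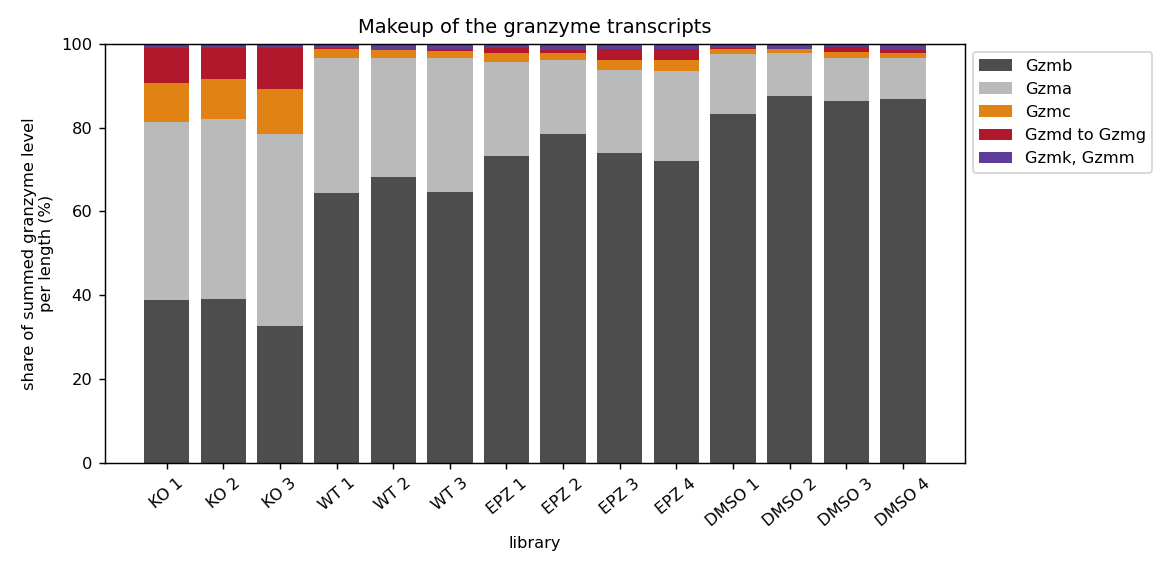
Share of each granzyme in the summed level per length of the 9 granzymes, by library. Gzmb (dark grey) takes 32.7% to 39.1% in the KO libraries and 83.3% to 87.6% in the DMSO libraries, and Gzmd to Gzmg (red) are visible as a band mainly in KO.

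All granzymes together took 0.503% ± 0.0624 of the counts in KO and 0.239% ± 0.0481 in WT, and 0.117% ± 0.0132 in EPZ and 0.107% ± 0.0113 in DMSO. The ratio of Gzmb CPM to the summed CPM of Gzmc to Gzmg was 3.19 ± 0.622 in KO and 47.8 ± 4.18 in WT, and 32.5 ± 13.4 in EPZ and 87.4 ± 35.6 in DMSO. Compared per length, Prf1 had 101 ± 14.6 CPM per kb in KO and 8.07 ± 2.64 in WT, and 15.8 ± 4.52 in EPZ and 8.43 ± 1.88 in DMSO, so that it lay below Gzma and Gzmb in every group.

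The rest of the locus was compared with the granzyme cluster. Within 500 kb on either side of the cluster, 61 other genes are in the table. For KO against WT, 24 were tested, of which 6 were higher and 3 lower (20.3% and 20.2% of all genes). Of these 6, Cma1, Mcpt8 and Ctsg are proteases beside the cluster, whose products are known from mast cells, basophils and myeloid cells. Mcpt8 had 358 counts over the KO libraries and 7 over the WT libraries, a ratio of 47.6 (95% interval 22.9 to 119; adjusted p = 9.59e-08). Cma1 had 76 counts over the KO libraries and 2 over the WT libraries, a ratio of 35.4 (9.47 to 298; adjusted p = 2.34e-05). Ctsg had 81 counts over the KO libraries and none over the WT libraries, which makes it at least 25.1-fold higher against a floor of 3 counts over the group (adjusted p = 4.24e-05). No WT library reached the filter's level for any of these 3 genes, so they were tested through the KO libraries alone and their calls are not independent of the filter. In EPZ and DMSO these 3 genes did not pass the filter, with 20 and 2 counts for Mcpt8, 12 and 2 for Cma1 and 19 and 2 for Ctsg. Of the 9 neighbours on the list, only those 3 passed the filter in KO against WT. No counts were found in any library for Mcpt1, Mcpt2, Mcpt4 or Mcpt9. Gzmn, which lies between Gzmg and Gzmf, had 2 counts in KO and none in the other groups, and Cma2 had 1 count, in WT.

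Without these proteases, 21 genes within 500 kb were tested for KO against WT, of which 3 were higher and 3 lower (14.3% higher, against 20.3% of all genes), with log2 fold changes from -0.67 to 1.41. For EPZ against DMSO, 21 were tested, of which 2 were higher and 1 was lower (9.52% higher, against 11.9% of all genes). Ltb4r1, a leukotriene B4 receptor gene, was higher in both, by 1.41 ± 0.17 (adjusted p = 2.65e-05) and 0.61 ± 0.13 (0.00745), and Mdp1 was lower in both, by -0.66 ± 0.07 (1.22e-05) and -0.39 ± 0.08 (0.00739). On the far side of Gzmb, 5 genes were tested for KO against WT, of which Cenpj and Parp4 were lower in KO, by -0.67 and -0.27, and Mphosph8 (-0.06), Gm16973 (0.43) and Pspc1 (0.07) were not called. Log2 fold changes of the granzymes run from 5.91 for Gzme, 138 kb from Gzmb, through 5.52 for Gzmd at 126 kb, 6.06 for Gzmg at 99.3 kb, 4.49 for Gzmf at 47.4 kb and 3.58 for Gzmc at 24.2 kb, to 0.35 for Gzmb.

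**Figure D5:**
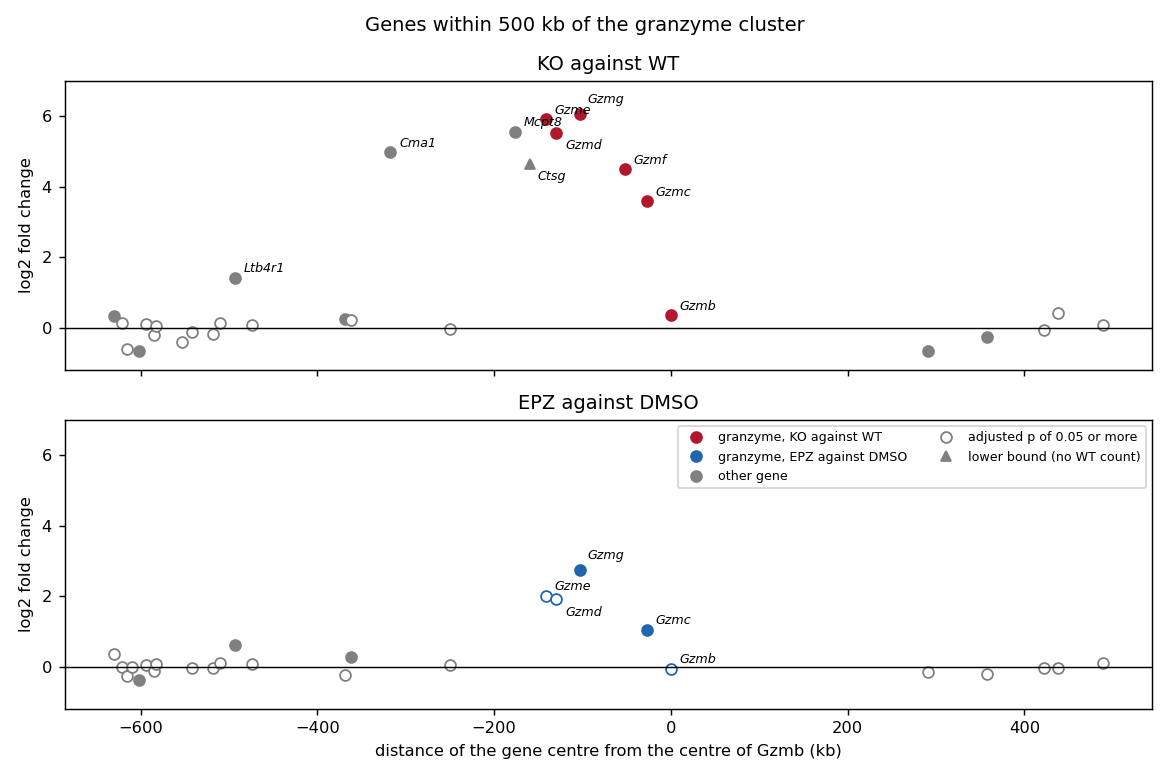
Log2 fold change of every tested gene within 500 kb of the cluster against the distance of its centre from the centre of Gzmb, for KO against WT (above) and EPZ against DMSO (below); open symbols have an adjusted p of 0.05 or more, and the triangle is a lower bound. Cma1, Mcpt8, Ctsg and the granzymes from Gzme to Gzmc have the largest KO effects in the window, with Gzmb at 0.35.

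Other genes of the granule pathway were counted list by list. Granule content and processing genes counted 2 higher and 1 lower of 10 tested in KO against WT (20.3% and 20.2% of all genes) and 1 higher and 1 lower of 10 in EPZ against DMSO (11.9% and 8.31% of all genes). These counts are near or below the shares over all genes. In KO, Calr, a calcium-binding chaperone found in granules, was higher by 0.61 ± 0.07 (adjusted p = 1.8e-05) and Ctsl, a cysteine protease, by 0.72 ± 0.12 (4.13e-04), while Lamp1, a membrane protein of granules and lysosomes, was lower by -0.28 ± 0.06 (0.00242). In EPZ, Calr was higher by 0.34 ± 0.08 (adjusted p = 0.00993) and Gnptab, an enzyme of the mannose 6-phosphate tag that sorts granzymes to granules, was lower by -0.28 ± 0.05 (0.00473).

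Granule release genes counted 3 higher and 3 lower of 16 in KO against WT, and 2 higher and 1 lower of 16 in EPZ against DMSO, again near the shares over all genes. Sytl2, which binds Rab27 on granules, was higher by 1.05 ± 0.08 in KO (adjusted p = 2.5e-07) and by 0.44 ± 0.05 in EPZ (3.62e-04). Stx11, a syntaxin that granule fusion requires, was higher by 0.82 ± 0.12 in KO (1.46e-04) and by 0.44 ± 0.13 in EPZ (0.0348). Lyst, mutated in Chediak-Higashi syndrome, was lower by -1.14 ± 0.18 in KO (2.05e-04), and Vamp2, a fusion protein of granules, was lower by -0.21 ± 0.06 in EPZ (0.0394).

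Granzyme inhibitors are serpins that protect the killer cell or its neighbours, and 6 serpins were listed under this name. Whether each of them inhibits a granzyme was not checked. In KO against WT the listed serpins counted 6 higher and 0 lower of 6 (20.3% and 20.2% of all genes). In EPZ against DMSO they counted 5 higher and 0 lower of 6 (11.9% and 8.31% of all genes). Serpinb9, an inhibitor of granzyme B, averaged 269.8 ± 23.0 CPM in KO and 82.6 ± 12.7 CPM in WT (SD, n = 3 each), and the log2 fold change was 1.70 ± 0.10 (adjusted p = 2.95e-08). It averaged 134 ± 18.5 CPM in EPZ and 75.4 ± 6.78 CPM in DMSO (n = 4 each), a log2 fold change of 0.83 ± 0.10 (3.07e-04). Serpinb9b, which inhibits mouse granzyme M, was higher by 5.29 ± 0.51 in KO (3.75e-06) and by 2.17 ± 0.28 in EPZ (4.83e-04), with mean levels of 6.42 CPM in KO and 0.130 CPM in WT, and 1.38 CPM in EPZ and 0.300 CPM in DMSO. It passed each filter through the KO or EPZ libraries alone, so its calls, which count in both totals, are not independent of the filter. Serpinb6b was higher by 1.38 ± 0.10 in KO (3.77e-07) and by 0.24 ± 0.06 in EPZ (0.0136). Serpina3g was higher by 0.45 ± 0.07 in KO (2.24e-04) and by 0.49 ± 0.08 in EPZ (0.00238).

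Regulators of granzyme and perforin genes counted 7 higher and 14 lower of 26 in KO against WT (20.3% and 20.2% of all genes). They counted 5 higher and 8 lower of 26 in EPZ against DMSO (11.9% and 8.31% of all genes). Zfp683, which encodes Hobit, was lower by -2.47 ± 0.18 in KO (2.71e-07) and by -1.37 ± 0.15 in EPZ (1.7e-04), and Il2ra, the high-affinity interleukin-2 receptor chain, was lower by -0.92 ± 0.07 in KO (3.43e-07) and by -0.59 ± 0.07 in EPZ (3.29e-04). Stat5b, a signal transducer of interleukin-2, was lower by -0.95 ± 0.08 in KO (6.93e-07), and Prdm1, which encodes Blimp-1, was higher by 1.43 ± 0.11 at the same adjusted p. Id2, an inhibitor of DNA binding that favours effector cells, was higher by 0.84 ± 0.07 in EPZ (4.3e-05) and by 0.66 ± 0.09 in KO (7.09e-05). Stat5b was also lower in EPZ, by -0.45 ± 0.06 (5.83e-04), and Prdm1 was also higher in EPZ, by 0.84 ± 0.17 (0.0066).

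Summed markers of other cell types differed between the groups, some higher and some lower where granzymes were higher. NK cell markers, of which 4 of 5 tested were higher in KO (20.3% of all genes were) and of these Ncr1 and Tyrobp passed the filter through KO alone, summed to 136 to 180.4 CPM in KO and 20.1 to 30.2 CPM in WT, with Klra8 and Klra7 at 0 in KO, and to 28.3 to 39.6 CPM in EPZ and 6.63 to 9.72 CPM in DMSO. Mast cell and basophil markers summed to 102 to 137 CPM in KO and 15.1 to 20.5 CPM in WT, and to 49.7 to 67.4 CPM in EPZ and 15.5 to 26.1 CPM in DMSO. Kit, the stem cell factor receptor, made up most of that sum, at 104 ± 15.2 CPM in KO and 16.8 ± 2.74 CPM in WT, and 55.2 ± 6.98 CPM in EPZ and 17.9 ± 5.07 CPM in DMSO (SD, n = 3, 3, 4 and 4). The list also holds Mcpt8, at 10.5 ± 2.11 CPM in KO and 0.166 ± 0.144 CPM in WT, and Cma1. Fcer1a, Ms4a2, Gata2, Mcpt4, Tpsb2 and Tpsab1 were at 0 in all 4 groups. Gamma delta T cell markers summed to 113 to 121 CPM in KO and 211 to 264 CPM in WT, and to 247 to 278 CPM in EPZ and 241 to 259.8 CPM in DMSO. Trdc made up most of that sum, averaging 99.8 CPM in KO, 178 in WT, 229 in EPZ and 213 in DMSO. In EPZ, Trdc was not called (0.11), nor were Trgc1 (-0.28) and Trgc2 (-0.37), and Trgc4 was lower by -0.89 (adjusted p = 0.0137, edgeR). Myeloid markers summed to 3.73 to 8.05 CPM in KO and 0.242 to 1.46 CPM in WT, and to 0.976 to 1.76 CPM in EPZ and 0.344 to 0.819 CPM in DMSO, and B cell markers to at most 1.39 CPM in any library. CD4 and regulatory T cell markers summed to 34.2 to 38.0 CPM in KO and 25.1 to 30.8 CPM in WT, and to 26.8 to 29.7 CPM in EPZ and 29.9 to 35.7 CPM in DMSO. Zbtb7b, at 34.4 ± 2.30 CPM in KO and 21.2 ± 0.177 CPM in WT, made up most of that sum, while Foxp3 was lower in KO by -2.16 ± 0.33 (adjusted p = 1.81e-04) and in EPZ by -1.27 ± 0.31 (0.0153). The part of these markers in the granzyme and perforin results was not tested.

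Likeness between members across the 14 libraries is given here as a description. The points come from 4 groups, so these correlations of log2 CPM include the differences between group means. For Gzmd to Gzmg and Prf1, KO stood apart from the rest. For Gzma, Gzmb and Gzmk, WT was also above EPZ and DMSO without overlap. Gzmb, for example, averaged 1813 CPM in WT and 953 CPM in DMSO. Among Gzmd, Gzme, Gzmf, Gzmg and Prf1, Pearson's r was 0.931 to 0.984 over 10 pairs, and among Gzma, Gzmb and Gzmk it was 0.945 to 0.981 over 3 pairs. Between these sets it was 0.588 to 0.825, but Gzmc was close to members of both, at 0.956 with Gzma and 0.932 with Gzmk, and at 0.943 with Gzmf and 0.920 with Gzme. Between Gzmm and the others it was -0.0803 to 0.553. Of 10064 genes with enough counts, those most like Prf1 were Rgs16 (0.986), Gzmg (0.984), Epas1 (0.984), Cdh17 (0.984) and Spp1 (0.982). Those most like Gzme were Rgs16 (0.975), Gzmf (0.974), Gzmd (0.974), Plod2 (0.970) and Spp1 (0.969). Genes among those most like Gzmb were Sh3bp2 (0.979), Rabgef1 (0.977), Fosl2 (0.975) and Nol10 (0.974), and Gzma was most like Fam20a (0.990), Mt1 (0.989), Esm1 (0.987), Ptpn7 (0.986) and Rasgef1b (0.986).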

How the data were processed

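RNA from 14 libraries was analysed as deposited raw read counts per Ensembl gene, with no normalization by the authors. Per the submitters' processing notes, TopHat2 2.1, Bowtie 1.1 and HTSeq are named with mm10; the sources used here state neither the strand setting nor the annotation release. A row without a name held 0 counts and was left out. The libraries were prepared with a stranded kit from poly(A) RNA with an RNA integrity number above the submitters' limit, per the labels' protocols.

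The test was that of edgeR 4.0.16 under R 4.3.3 (TMM, filterByExpr with a minimum count of 10 and a total of 15, quasi-likelihood F-test, Benjamini-Hochberg over all genes tested, called at 0.05), KO against WT and EPZ against DMSO each in its own fit and the difference of effects in 1 fit of 14 libraries. DESeq2 1.42.0 was an alternative. The EPZ and DMSO libraries are named after 4 shared animals, WT1 to WT4, and correlations of their deviations from the group means were 0.538, -0.0525, -0.112 and 0.422; blocking on the animal was therefore tried beside the main fit. KO and WT share only replicate numbers. Levels per length use the union of exons of GENCODE release 21. On simulated counts, 94.2% of genes raised by 1 log2 unit were recovered for KO against WT (11513 genes), 95.6% for EPZ against DMSO (12226 genes) and 51% for the difference of effects (12411 genes). The simulation gave every gene the same spread between libraries and no animal effect. These shares therefore do not apply to genes that vary widely between animals, such as Gzmd and Gzme. Intervals of count ratios rest on pooled counts and cover counting error only. Named were all 10 members, up to 3 called genes of each list per comparison by smallest adjusted p, and the 5 genes most like Prf1, Gzmb, Gzma and Gzme, of which 1 is not reported here; locus genes called within 500 kb and markers were named after their values were seen. Members and lists were chosen with earlier results of these data known. The labels call the replicates biological.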

Additional observations from a re-analysis of the deposited data

Results flagged for a closer look

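The KO effect exceeded the EPZ effect in the fit of all 14 libraries for 4 members, with a difference on the log2 scale of 2.54 for Gzmc, 3.58 for Gzmd, 3.85 for Gzme and 2.68 for Prf1. For Gzmc the effects were 3.58 in KO and 1.04 in EPZ, and for Prf1 3.57 in KO and 0.91 in EPZ. For Gzmd they were 5.52 in KO and 1.91 in EPZ, and for Gzme 5.91 in KO and 2.01 in EPZ. In the DMSO group 1 library stood apart for Gzmm, at 12.1 CPM against 8.69 to 9.24 CPM in the other DMSO libraries, with a gap of 0.84 of the group's range. Chance flags about 1 in 20 groups in this way, and 20 groups were looked at.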

How the results depend on the processing

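No member changed direction between settings. For KO against WT, 10 members were called, and 8 to 10 when 1 library was left out; another scaling, DESeq2, no filter, a filter of 10 CPM, thinning and 1 fit of 14 libraries gave 8 to 10. For EPZ against DMSO, 5 were called. A filter of 10 CPM left 5 members tested and 3 called, 1 fit of all 14 libraries gave 8, and leaving out 1 library gave 3 to 7, with 3 called without DMSO 1, EPZ 1 or EPZ 3. With the replicate block, the pairing by animal gave 7. For the difference of effects, 4 were called; no filter on low counts gave 9, the replicate block over all numbers gave 7, a block by animal for EPZ and DMSO alone, added after seeing the data, gave 4, and leaving out 1 library gave 2 to 5. The replicate block took the Gzmm call from KO against WT, at an adjusted p of 0.0550, and in KO and WT the numbers are not a pairing, with correlations of 0.0485, -0.152 and -0.150. On counts not divided by length, the Gzmb share was 46.0% in KO and 73.1% in WT, and Gzma was below Gzmb in KO at 38.2%. The cause of these shifts was not tested, apart from the filters, which change how many genes are tested. Depth limits Gzmf and Gzmg, whose control groups held 9 to 14 counts.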
